A study of Mus musculus with 21 samples.

Results

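The genes described here are 10 matricellular and fibroblast activation genes measured in the mouse left ventricle after aortic banding, with and without stimulation of the vagus nerve. They were chosen by name, as rows of the deposited count table whose Ensembl gene ID belongs to Postn, Tnc, Sparc, Spp1, Thbs1, Thbs4, Ccn1, Ccn2, Timp1 or Pi16. All 10 were found among the 22136 genes of the table, and all 10 passed the filter on low counts that left 12100 genes to test. Bulk RNA of the left ventricle was sequenced in 21 wild type male C57BL/6 mice, 3 in each of 7 groups, which were operated on at an age of 8 weeks and killed 8 weeks later. The labels name the 3 libraries of a group as biological replicates.

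Sham mice underwent the operation with no ligature on the aorta. AB mice had the ascending aorta narrowed by a ligature, which loads the left ventricle with pressure, and every group other than Sham carried this band. AB_Implant mice also received a stimulator at week 1 that was never activated. In the 4 remaining groups a nanogenerator under the skin, wired to a cuff on the left cervical vagus nerve, delivered 4 µA at 2 Hz every day. AB_LLVNS20min_1w, AB_LLVNS20min_2w and AB_LLVNS20min_4w received 20 min a day from week 1, 2 and 4, for 7, 6 and 4 weeks. AB_LLVNS10min_1w received 10 min a day from week 1, for 7 weeks. The week of implantation was stated for AB_Implant, and no sham-operated group with a device was analysed here.

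Matricellular proteins are secreted into the extracellular matrix but do not build its fibers. They bind collagen, growth factors and integrins and so adjust how cells attach, migrate and respond to transforming growth factor beta (TGF-beta). The healthy adult myocardium makes little of most of them, and fibroblasts that become activated by pressure overload or infarction make more. TIMP1, which blocks matrix metalloproteinases, and PI16, a surface marker of adventitial fibroblasts, are followed beside them.

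Library totals lay between 11577509 and 19414865 counts, and mitochondrial genes took 34.4% to 55.3% of them. Levels are TMM-scaled CPM, counts divided by the scaled size of the library, unless another unit is named. All 6 cardiomyocyte markers were detected in every library, with a summed level of 33490 to 66440 CPM, and all 6 fibroblast markers too, with 372 to 1056 CPM. Of the 4 atrial markers, 3 or 4 were detected in each library, and the highest of them, Nppa, is also made by the stressed ventricle. Nppa reached 5502 CPM, whereas Sln, Myl7 and Myl4 reached at most 45.25, 230 and 236 CPM. High sums of this list were thus mostly Nppa. The slope of log2 CPM on log2 exonic length was positive in 3 libraries, AB_LLVNS20min_1w replicate 2 (0.128), AB_LLVNS20min_2w replicate 1 (0.141) and AB_LLVNS10min_1w replicate 2 (0.115). It was negative in the other 18, down to -0.50, and results are given with and without those 3 libraries where they differ.

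Ccn1 and Pi16 were the only members that passed the test in any of 19 comparisons. Ccn1 was lower in banded mice stimulated from week 1, with 20 min or with 10 min a day, than in banded mice with an inactive device. Against AB, banded mice without a device, its log2 fold changes were -0.52 and -0.42 (edgeR adjusted p = 0.974 and 0.874). Pi16 was higher than in Sham in AB_Implant and in the groups stimulated from week 2 and from week 4. Liver marker sums separated all stimulated libraries from all others, as given below. Their part in the differences of the stimulated groups was not tested. Across all 7 groups, the edgeR quasi-likelihood F test with Benjamini-Hochberg adjustment over 12100 genes called Pi16 (adjusted p = 0.0133) and Ccn1 (adjusted p = 0.0208). These were 2 of 10 members, against 0.537% of all genes tested. Pi16 lost its call without Sham replicate 2 (edgeR adjusted p = 0.0526), and Ccn1 without AB_Implant replicate 1 or 3 or AB_LLVNS10min_1w replicate 3 (edgeR adjusted p from 0.0501 to 0.247). Without AB_Implant replicate 2, singled out as the lowest of its group for all 10 members, edgeR called 5 members (0.976% of all genes). Without the 3 libraries of positive length slope it called 7 (20.3%), and DESeq2 called 8 (4.47%). Other settings lowered the count. With a replicate block edgeR called 1 (0.388%), and with a filter at a mean of at least 5 CPM no member was called. In the main edgeR test over all 7 groups, the smallest adjusted p-values after Pi16 and Ccn1 were 0.0884 for Ccn2 and 0.125 for Postn.

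**Figure D1:**
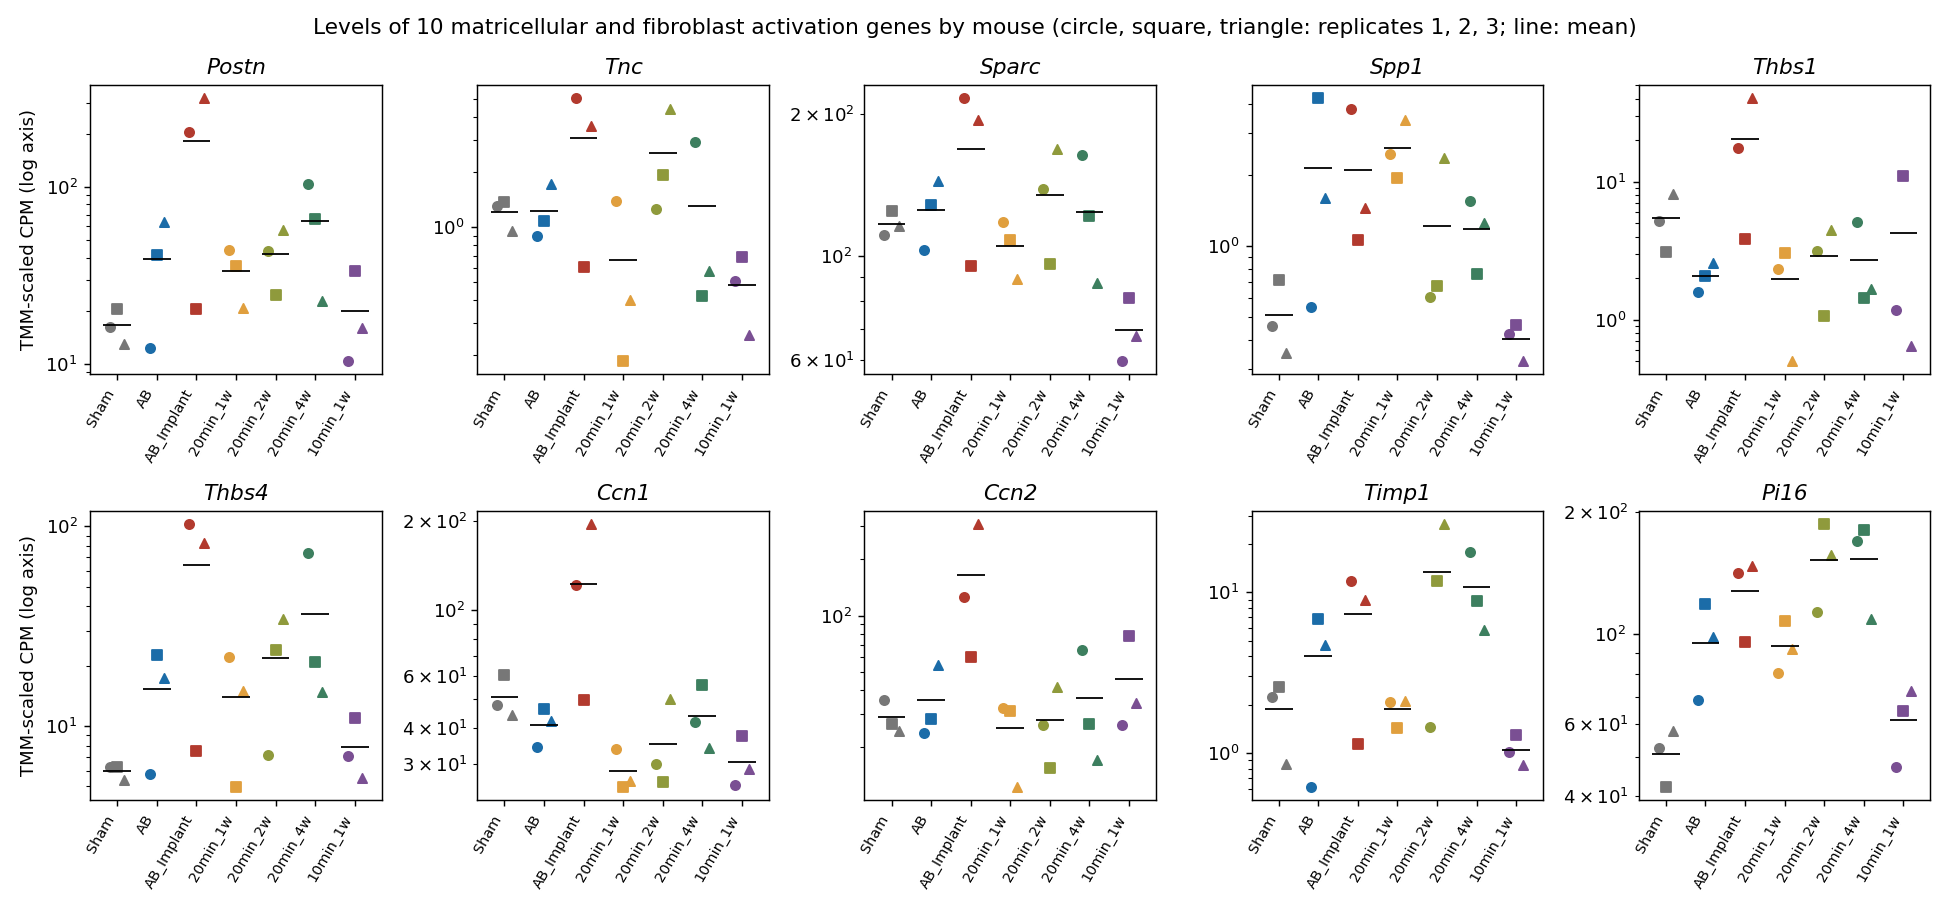
TMM-scaled CPM on a log axis for each of the 10 genes and 21 mice; circles, squares and triangles are replicates 1, 2 and 3 and the line is the mean of 3. The 4 stimulated groups are written without the start of their names (20min_1w stands for AB_LLVNS20min_1w). In AB_Implant (red), replicate 2 is the lowest mouse in all 10 panels.

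Postn encodes periostin, which crosslinks collagen and marks activated fibroblasts of the heart. It lies at chr3:54361109-54391037 (GRCm38, plus strand). It measured 16.2, 20.4 and 12.9 CPM in the 3 Sham mice, and 12.3, 41.4 and 63.9 CPM in the 3 AB mice. In AB_Implant it measured 206, 20.4 and 320.1 CPM. Replicates 1 and 3 of AB_Implant were thus the highest of all 21 mice, while replicate 2 lay within the range of Sham. The stimulated groups had means between 20.03 ± 12.2 CPM (SD, n = 3) in AB_LLVNS10min_1w and 64.2 ± 40.7 CPM in AB_LLVNS20min_4w, and their mice overlapped with AB.

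Tnc encodes tenascin-C, a glycoprotein that appears at sites of tissue injury and remodeling, and lies at chr4:63959785-64047015 (minus strand). It was the least abundant member per length, with 0.193 CPM per kb on average over the 21 mice and 3 to 86 counts per library. Its group means ran from 0.487 ± 0.217 CPM in AB_LLVNS10min_1w to 3.08 ± 2.27 CPM in AB_Implant, and AB (1.23 ± 0.429 CPM) was close to Sham (1.21 ± 0.228 CPM). The 3 mice of AB_LLVNS10min_1w, at 0.508, 0.692 and 0.260 CPM, all lay below the 3 Sham mice.

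Sparc encodes osteonectin, a collagen-binding protein needed for mature collagen fibers, and lies at chr11:55394500-55423183 (minus strand). It was the most abundant member per length, at 31.8 CPM per kb on average. Its ratio of highest to lowest mouse was the smallest of the members, 3.60-fold (59.9 to 216 CPM). In Sham it measured 110.4, 124 and 116 CPM. In AB_LLVNS10min_1w it measured 59.9, 81.3 and 67.7 CPM, below every other mouse of the study. In AB_Implant it measured 216, 95.1 and 194 CPM, and the groups AB_Implant and Sham overlapped through replicate 2.

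Spp1 encodes osteopontin, a ligand of integrins and CD44 that macrophages and fibroblasts make after injury, and lies at chr5:104435118-104441050 (plus strand). It was scarce, with 5 to 57 counts per library. Sham mice had 0.458, 0.719 and 0.351 CPM, and AB mice 0.549, 4.24 and 1.601 CPM. Its highest group mean was 2.61 ± 0.758 CPM in AB_LLVNS20min_1w, where all 3 mice (2.47, 1.93 and 3.43 CPM) lay above every Sham mouse. The 3 mice of AB_LLVNS10min_1w (0.423, 0.461 and 0.325 CPM) overlapped with Sham, and the last of them was below every Sham mouse. The summed level of 7 macrophage markers, all detected in every library, was 151 to 214 CPM in AB_LLVNS20min_1w, above the 79.0 to 149 CPM of Sham and the 85.6 to 128 CPM of AB_LLVNS10min_1w. It did not follow Spp1 over all groups, because its highest means were those of AB_LLVNS20min_2w and AB_LLVNS20min_4w (202 CPM in both), where Spp1 averaged 1.22 and 1.18 CPM. The 5 genes listed for Spp1-positive macrophages summed to 46.4 to 88.3 CPM in AB_LLVNS20min_1w, on both sides of the 57.0 to 65.6 CPM of Sham. The part of macrophage content in the values of Spp1 was not tested.

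Thbs1 encodes thrombospondin-1, an inhibitor of vessel growth that can activate latent TGF-beta, and lies at chr2:118111876-118127133 (plus strand). Its values were 5.17, 3.12 and 8.17 CPM in Sham and 1.58, 2.07 and 2.60 CPM in AB, so all AB mice were below all Sham mice. In AB_Implant they were 17.5, 3.86 and 40.5 CPM, all above AB, with replicate 2 again inside the range of Sham. It had the widest range of all members, with an 80.3-fold distance between the lowest mouse (0.504 CPM) and the highest. AB_LLVNS10min_1w replicate 2, at 11.0 CPM against 1.18 and 0.650 CPM in the other mice of its group, is 1 of the 3 libraries with a positive length slope.

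Thbs4 encodes thrombospondin-4, which helps stressed cardiac and muscle cells to secrete and assemble matrix proteins, and lies at chr13:92751590-92794818 (minus strand). Sham was tight at 6.28, 6.23 and 5.36 CPM. In AB it measured 5.76, 22.6 and 17.5 CPM, and in AB_Implant 103, 7.49 and 82.8 CPM. In AB_LLVNS20min_4w it measured 73.5, 20.9 and 14.9 CPM. All mice of AB_Implant, AB_LLVNS20min_2w (7.16, 24.2 and 34.5 CPM) and AB_LLVNS20min_4w were above all Sham mice, and in AB and AB_Implant a single mouse, AB replicate 1 and AB_Implant replicate 2, stayed at or near the Sham level.

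Ccn1 (also Cyr61) and Ccn2 (also Ctgf) encode secreted CCN proteins that bind integrins, and both are known as rapid targets of mechanical stretch through the YAP and TEAD factors. Ccn1 lies at chr3:145646976-145649981 (minus strand) and Ccn2 at chr10:24595442-24598683 (plus strand). Ccn1 measured 47.7, 60.1 and 44.1 CPM in Sham, 34.4, 46.4 and 42.1 CPM in AB, and 121.5, 49.8 and 196 CPM in AB_Implant. In AB_LLVNS20min_1w it measured 33.9, 25.2 and 26.4 CPM, and in AB_LLVNS10min_1w 25.5, 37.5 and 28.9 CPM. Every mouse of these 2 stimulated groups was below every Sham mouse and below every AB_Implant mouse. In AB_LLVNS20min_2w it measured 30.0, 26.1 and 49.9 CPM, and in AB_LLVNS20min_4w 41.7, 55.6 and 34.1 CPM, and both of these groups touched the range of AB_Implant through its replicate 2. The 2 lowest groups, AB_LLVNS20min_1w (28.5 ± 4.68 CPM) and AB_LLVNS10min_1w (30.6 ± 6.18 CPM), overlapped.

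The sequences before the starts of Ccn1 and Postn are shown because Ccn1 carries the called difference against AB_Implant and Postn follows it most closely among the members within groups, after Bgn among all genes. They are the 250 bases before the RefSeq start on GRCm38.p6, chr3:145649986-145650235 on the minus strand for Ccn1 and chr3:54360857-54361106 on the plus strand for Postn, written 5′ to 3′ along the gene. RefSeq gave 2 starts for Postn, and the window shown belongs to the one next to the annotated start of the gene. Capitals mark matches to GGAATG (the TEAD motif, also as its reverse complement CATTCC) or to TATAAA.
Ccn1: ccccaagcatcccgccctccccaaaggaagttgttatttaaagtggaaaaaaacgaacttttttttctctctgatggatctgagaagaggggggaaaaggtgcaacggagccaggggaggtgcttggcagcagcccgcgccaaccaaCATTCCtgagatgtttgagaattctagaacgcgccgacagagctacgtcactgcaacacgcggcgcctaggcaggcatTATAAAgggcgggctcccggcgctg
Postn: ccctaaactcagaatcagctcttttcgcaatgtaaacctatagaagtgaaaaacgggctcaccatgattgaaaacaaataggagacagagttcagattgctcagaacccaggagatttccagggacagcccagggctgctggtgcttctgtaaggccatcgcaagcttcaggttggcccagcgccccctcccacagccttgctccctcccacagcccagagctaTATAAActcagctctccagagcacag
Ccn1 held 1 TEAD motif on the opposite strand, 103 to 98 bases before the start, and TATAAA 25 to 20 bases before it. Postn held TATAAA 26 to 21 bases before the start and no TEAD motif, and its other window held neither. GGAATG was also found in the windows of Thbs4 (2 overlapping places) and Timp1 (1 place), so 3 of the 8 members with a window held it. Of 32851 RefSeq promoter windows of this length, 12.6% held GGAATG on either strand and 12.4% held TATAAA. The AP-1 motif TGANTCA (6.75% of windows) and the CArG box (1.47%), read on both strands, had no match in the window of any member. RefSeq windows were given for 8 of the 10 members, all but Thbs1 and Ccn2. The window of Pi16 lay wholly in an annotated exon and is not printed. That of Sparc had 238 of its 250 bases in annotated exons. Both are counted among the 8.

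Ccn2, connective tissue growth factor, measured 35.7, 26.6 and 24.2 CPM in Sham, 23.6, 28.1 and 54.3 CPM in AB, and 126, 60.5 and 309 CPM in AB_Implant. All 3 AB_Implant mice were above all Sham and all AB mice. Among the stimulated groups, AB_LLVNS20min_1w (32.4, 31.1 and 12.3 CPM) and AB_LLVNS20min_2w (26.1, 15.4 and 41.7 CPM) lay wholly below AB_Implant. AB_LLVNS20min_4w (65.8, 26.4 and 17.0 CPM) and AB_LLVNS10min_1w (26.1, 77.7 and 34.4 CPM) each had 1 mouse inside its range. Genes on the opposite strand share exonic bases with 4 members, 665 with Ccn2 (Gm15270), 222 with Pi16 (AC162182.1), 208 with Thbs1 (Gm29233) and 176 with Tnc (8030451A03Rik), and reads of such pairs cannot be told apart if strand was not used in counting. Spp1 shares 309 exonic bases with Gm42793 on its own strand. None of these 5 genes has a row in the table analysed here.

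Timp1 encodes an inhibitor of matrix metalloproteinases that is induced in fibrosis and inflammation, and lies at chrX:20870166-20874735 (plus strand). It measured 2.22, 2.58 and 0.852 CPM in Sham and 0.617, 6.81 and 4.69 CPM in AB. It reached 1.45, 11.9 and 26.7 CPM in AB_LLVNS20min_2w and 17.9, 8.87 and 5.81 CPM in AB_LLVNS20min_4w. The 2 groups stimulated from week 1 were as low as Sham, at 2.09, 1.43 and 2.12 CPM with 20 min and 1.02, 1.29 and 0.844 CPM with 10 min. All mice of AB_LLVNS20min_4w were above all mice of Sham and of both groups stimulated from week 1, whereas AB_LLVNS20min_2w overlapped with Sham and AB_LLVNS20min_1w through replicate 1, another library with a positive slope, and lay wholly above AB_LLVNS10min_1w.

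Pi16 encodes peptidase inhibitor 16, carried by adventitial fibroblasts and in mice known to restrain cardiomyocyte growth, and lies at chr17:29317680-29330593 (plus strand). It measured 52.5, 42.2 and 57.8 CPM in Sham, 68.7, 118.5 and 98.3 CPM in AB, and 141, 96.0 and 147 CPM in AB_Implant. It measured 80.4, 108 and 92.0 CPM in AB_LLVNS20min_1w, 113, 187 and 157 CPM in AB_LLVNS20min_2w and 170.0, 181 and 109 CPM in AB_LLVNS20min_4w. Every mouse of these 5 banded groups was above every Sham mouse. The overlap with AC162182.1 named above applies to all of these values. AB_LLVNS10min_1w, at 47.2, 64.8 and 72.7 CPM, overlapped with Sham. From the highest mean to the lowest the order was AB_LLVNS20min_4w (153 ± 38.8 CPM), AB_LLVNS20min_2w (152 ± 37.0), AB_Implant (128 ± 28.0), AB (95.2 ± 25.0), AB_LLVNS20min_1w (93.4 ± 13.8), AB_LLVNS10min_1w (61.6 ± 13.1) and Sham (50.8 ± 7.91). The ranges of neighbors in this order overlapped, except that AB_LLVNS20min_1w lay above AB_LLVNS10min_1w. In bulk tissue, a change in the number of cells that make a transcript and a change in the amount per cell cannot be told apart, and this holds for each member.

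Banding alone was read from AB against Sham. Mean levels of 8 of 10 members were higher in AB, with a median log2 fold change of 0.60 against -0.02 over all genes, but edgeR called 0 members (0% of all genes tested) and DESeq2 called 0 (0.0909% of all genes). At an unadjusted p under 0.05, edgeR had 2 members, against 4.99% of all genes. Pi16 was higher by a log2 fold change of 0.90 ± 0.26 (SE, edgeR adjusted p = 0.836) with no overlap between groups, where 6.77% of all genes showed higher values without overlap. Spp1 had a log2 fold change of 2.03 ± 0.70 (edgeR adjusted p = 0.836) and Thbs4 of 1.35 ± 0.80 (edgeR adjusted p = 0.836), both with overlap. Thbs1 had the most negative value, -1.39, with all AB mice below all Sham mice, as in 6.99% of all genes. AB replicate 1 was the lowest of its group for 10 of 10 members, and its fibroblast marker sum was 372 CPM, against 864 and 684 CPM in replicates 2 and 3. The part of fibroblast content in these values was not tested.

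AB_Implant against Sham compared banded mice carrying an inactive device with mice whose aorta was not ligated. All 10 members had higher means, with a median log2 fold change of 1.94 against -0.01 over all genes, and 1 passed the test, against 0.281% of all genes. Pi16 rose by a log2 fold change of 1.33 ± 0.26 (edgeR adjusted p = 0.0458). Postn (3.46 ± 0.80, edgeR adjusted p = 0.0760) and Thbs4 (3.44 ± 0.85, edgeR adjusted p = 0.0974) had larger fold changes and did not pass. The groups did not overlap for Pi16, Thbs4, Ccn2 and Spp1, 4 of 10 members against 9.45% of all genes in the higher direction.

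The result for AB_Implant depended on single mice. Without its replicate 2, the lowest for all 10 members, edgeR called 5 members (Postn, Ccn1, Pi16, Thbs4 and Ccn2), against 1.28% of all genes, with the spread of the 2 remaining mice taken as that of the other groups. Postn then had a log2 fold change of 3.99 ± 0.66 (edgeR adjusted p = 0.00981). Replicate 2 was singled out by the members' own values, so leaving it out raises their means in AB_Implant by construction. Calls gained in any fit without it are therefore no support for a difference. Leaving out any of the 5 other libraries of this comparison ended the call of Pi16 (edgeR adjusted p from 0.0750 to 0.247). DESeq2 called the same 5 members with all libraries, against 1.95% of all genes. The 3 AB_Implant mice also differed in fibroblast markers (987, 510.1 and 920 CPM, replicates 1 to 3). They differed too in the atrial marker sum, mostly Nppa (5407, 1831 and 4457 CPM). Replicate 2 was lowest for both, and the part of these in the members' values was not tested.

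AB_Implant against AB set banded mice with an inactive device beside banded mice without one. All 10 members had positive log2 fold changes, although that of Spp1 was 0.00286, turned negative in 6 alternatives (down to -0.73 without AB_Implant replicate 1), and its mean was 2.102 CPM in AB_Implant and 2.13 CPM in AB, with a median log2 fold change of 1.45 against 0.01 over all genes. edgeR called 0 members (0% of all genes), with 5 members at an unadjusted p under 0.05 (9.08% of all genes), and DESeq2 called 3 (Ccn1, Ccn2 and Thbs1, against 0.562% of all genes). Ccn1 had a log2 fold change of 1.58 ± 0.36 (edgeR adjusted p = 0.248), Ccn2 of 2.22 ± 0.62 (edgeR adjusted p = 0.320) and Thbs1 of 3.30 ± 0.96 (edgeR adjusted p = 0.337). The same 3 genes had no overlap between the groups, 3 of 10 against 9.11% of all genes in the higher direction. Without AB_Implant replicate 2, edgeR called Ccn1 (adjusted p = 0.0206) and no other member, against 0.0248% of all genes.

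**Figure D2:**
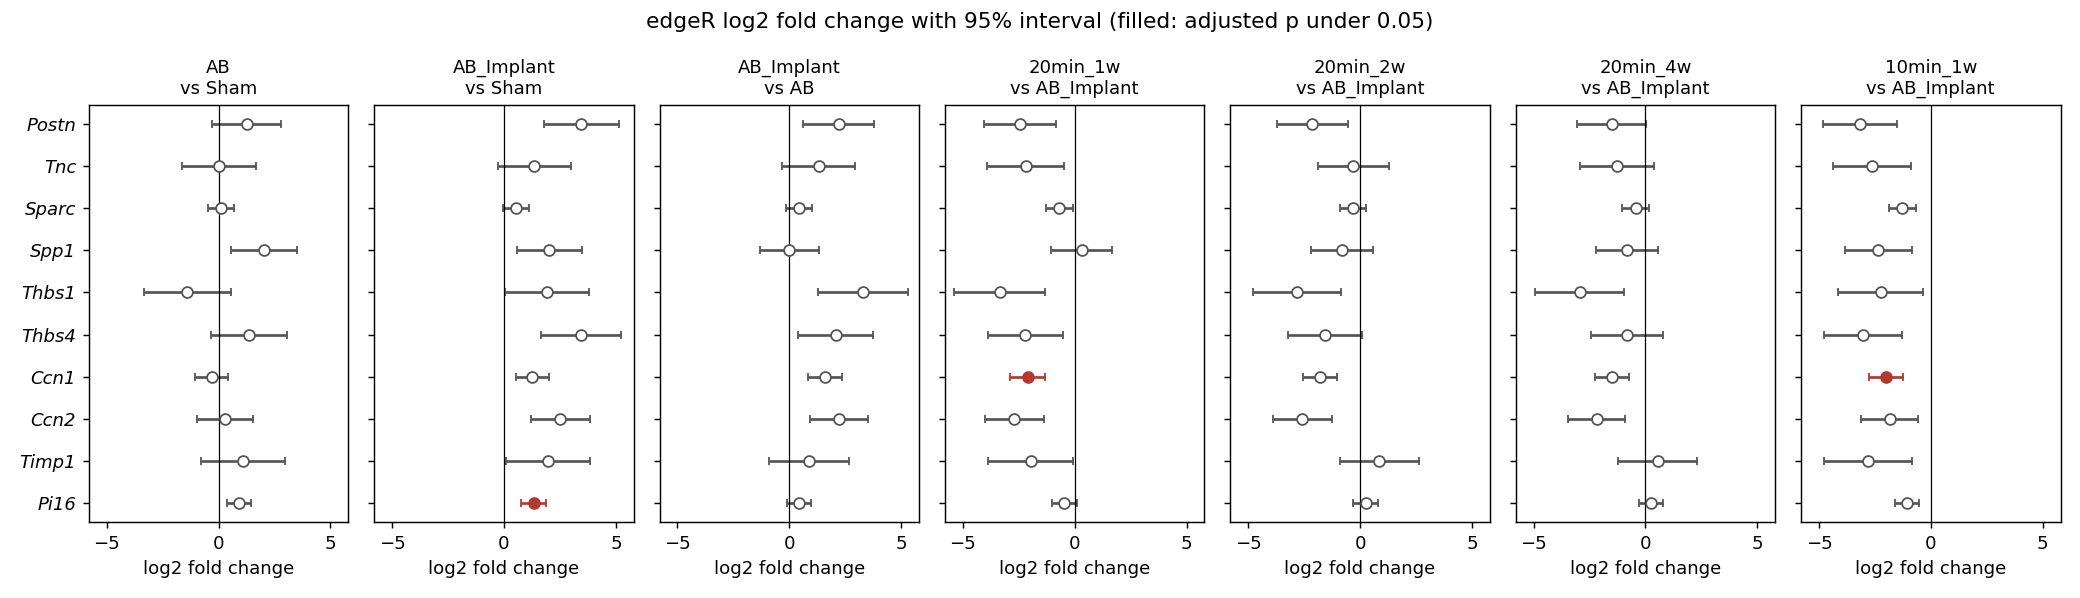
edgeR log2 fold change (x axis) of the 10 genes (y axis) in 7 comparisons, with 95% intervals; filled red points passed an adjusted p of 0.05. Stimulated groups are named without the start of their labels. The filled points are Pi16 in AB_Implant against Sham and Ccn1 in the groups stimulated from week 1 against AB_Implant.

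Stimulation was read against AB_Implant, the banded group that carried the device without current, and the 4 comparisons share these 3 control mice. Ccn1 fell by 2.103 ± 0.367 on the log2 scale in AB_LLVNS20min_1w (edgeR adjusted p = 0.0102), the 1 member called there, against 0.463% of all genes. It fell by 2.00 ± 0.37 in AB_LLVNS10min_1w (edgeR adjusted p = 0.0264), again the 1 member called, against 0.157% of all genes. In AB_LLVNS20min_2w it had a log2 fold change of -1.80 ± 0.36 (edgeR adjusted p = 0.0504) and in AB_LLVNS20min_4w of -1.49 ± 0.36 (edgeR adjusted p = 0.0827). edgeR called 0 members in these last 2 comparisons, against 0.174% and 0.322% of all genes, with 4 and 3 members at an unadjusted p under 0.05, where 5.1% and 26.3% of all genes were. The 3 of 10 in AB_LLVNS20min_4w are thus near the share of all genes. DESeq2 called 2 and 3 there, against 0.645% and 3.81% of all genes. In AB_LLVNS20min_1w and AB_LLVNS10min_1w it called 4 and 5, against 1.57% and 0.752%.

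The other members mostly had lower means than in AB_Implant. Negative fold changes were found for 9, 8, 8 and 10 of 10 members in AB_LLVNS20min_1w, AB_LLVNS20min_2w, AB_LLVNS20min_4w and AB_LLVNS10min_1w, with medians of -2.15, -1.18, -1.04 and -2.30, while the medians over all genes lay between -0.02 and 0.05. Ccn2 had the second smallest p in the 20 min groups, with log2 fold changes of -2.70 ± 0.63 (edgeR adjusted p = 0.0652), -2.57 ± 0.62 (0.161) and -2.18 ± 0.62 (0.120) from the earliest start to the latest. Thbs1 came next, with -3.36 ± 0.96 (0.180), -2.82 ± 0.93 (0.587) and -2.93 ± 0.95 (0.143). In AB_LLVNS10min_1w these places were taken by Sparc (-1.27 ± 0.28, edgeR adjusted p = 0.107) and Postn (-3.18 ± 0.79, edgeR adjusted p = 0.175). The members with positive values were Spp1 (0.31) in AB_LLVNS20min_1w and Timp1 and Pi16 in AB_LLVNS20min_2w (0.85 and 0.25) and AB_LLVNS20min_4w (0.56 and 0.26). The signs of Spp1 and Timp1 here each rested on single libraries, with values of -0.00477 for Spp1 without AB_Implant replicate 2, and for Timp1 of -0.18 without AB_LLVNS20min_2w replicate 3 and -0.00335 without AB_LLVNS20min_4w replicate 1. With the length slope as covariate, Timp1 had -0.41 in AB_LLVNS20min_4w.

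Mice of the groups did not overlap for Ccn1, Ccn2 and Thbs1 in AB_LLVNS20min_1w, 3 of 10 members against 6.68% of all genes in the lower direction. In AB_LLVNS10min_1w this held for Ccn1, Sparc, Pi16 and Spp1, 4 of 10 against 6.15%. In AB_LLVNS20min_2w it held for Ccn2, 1 of 10 against 3.74%, and in AB_LLVNS20min_4w for none in either direction. The call of Ccn1 in AB_LLVNS20min_1w was lost without AB_Implant replicate 3 or without replicate 2 or 3 of the stimulated group (edgeR adjusted p from 0.0633 to 0.0784). In AB_LLVNS10min_1w it was lost on leaving out any library other than AB_Implant replicate 2 (edgeR adjusted p from 0.0609 to 0.252). Without AB_Implant replicate 2, edgeR called 3 members in AB_LLVNS20min_1w (Ccn1, Ccn2 and Postn, against 0.835% of all genes), 4 in AB_LLVNS10min_1w (Ccn1, Sparc, Postn and Thbs4, against 0.488%) and Ccn1 alone in AB_LLVNS20min_2w and AB_LLVNS20min_4w (against 0.132% and 0.207%). Without the 3 libraries of positive length slope, edgeR called 3, 3, 3 and 2 members from AB_LLVNS20min_1w to AB_LLVNS10min_1w in the order above, against 1.57%, 14.7%, 32.2% and 0.373% of all genes. Ccn1 was among them each time. Atrial marker sums were 1831 to 5407 CPM in AB_Implant and 277 to 1038, 289 to 2486, 1134 to 5506 and 420.1 to 790.2 CPM in the 4 stimulated groups, in the order above. Fibroblast marker sums were lowest in AB_LLVNS10min_1w, at 416 to 510.4 CPM (mean 452 CPM), against means of 806 CPM in AB_Implant and 584 CPM in Sham. The part of both lists in the members' values was not tested.

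The mean of the 4 stimulated groups was also set against the mean of AB and AB_Implant. All 10 members had negative log2 fold changes, with a median of -0.92 against 0.02 over all genes, and 1 passed, against 0.438% of all genes. Ccn1 fell by 1.06 ± 0.21 on the log2 scale (edgeR adjusted p = 0.0245). Ccn2 (-1.21 ± 0.35, edgeR adjusted p = 0.340) and Postn (-1.20 ± 0.43, edgeR adjusted p = 0.744) came next. The call of Ccn1 was lost in 8 of 18 fits that left out 1 library, namely replicates 2 and 3 of AB, 1 and 3 of AB_Implant, 1 and 3 of AB_LLVNS20min_4w and 1 and 3 of AB_LLVNS10min_1w (edgeR adjusted p from 0.0536 to 0.156). DESeq2 called 1 member, against 0.686% of all genes. Without the 3 libraries of positive length slope edgeR called 4 (Ccn1, Ccn2, Thbs1 and Postn), against 18% of all genes. Summed liver markers, which the labelled tissue should lack, were 16.9 to 106 CPM in the 12 stimulated libraries and 0.378 to 2.96 CPM in the 9 others, and 5 or 6 of the 6 genes were detected in each stimulated library. The same split falls on every comparison of a stimulated group with AB_Implant, AB or Sham. The part of these markers in the values of Ccn1, Pi16 and the other members was not tested.

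Against AB, the banded mice without a device, edgeR called 0 members in any stimulated group. The shares of all genes called were 0.289% in AB_LLVNS20min_1w, 0.107% in AB_LLVNS20min_2w, 0.149% in AB_LLVNS20min_4w and 0.0496% in AB_LLVNS10min_1w. Members at an unadjusted p under 0.05 numbered 0, 1, 1 and 3, where 4.3%, 3.97%, 5.19% and 5.23% of all genes were, and DESeq2 called 0 in each (against 0.711%, 0.446%, 0.306% and 0.207% of all genes). Ccn1, called against AB_Implant, had log2 fold changes of -0.52 ± 0.36 in AB_LLVNS20min_1w (edgeR adjusted p = 0.974; 95% interval -1.27 to 0.23) and -0.42 (95% interval -1.16 to 0.33) in AB_LLVNS10min_1w. All 3 mice of AB_LLVNS20min_1w were below all AB mice for Ccn1, 1 of 10 members against 4.17% of all genes in the lower direction.

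The 3 members with the smallest p against AB differed by group. In AB_LLVNS20min_1w, after Ccn1, they were Timp1 (-1.10 ± 0.90, edgeR adjusted p = 0.974) and Tnc (-0.87 ± 0.83, edgeR adjusted p = 0.974). Pi16 and Timp1 led with positive values in AB_LLVNS20min_2w (0.68 ± 0.26 and 1.73 ± 0.87, edgeR adjusted p = 0.998 and 1.00) and in AB_LLVNS20min_4w (0.69 ± 0.26 and 1.44 ± 0.87, edgeR adjusted p = 0.753 for both). The next members were Tnc (1.02 ± 0.79, edgeR adjusted p = 1.00) and Thbs4 (1.26 ± 0.79, edgeR adjusted p = 0.753). In AB_LLVNS10min_1w, Spp1 (-2.35 ± 0.72, edgeR adjusted p = 0.730), Sparc (-0.84 ± 0.28, 0.776) and Pi16 (-0.63 ± 0.26, 0.874) led with negative values. All mice of that group were below all AB mice for Spp1, Sparc and Tnc, 3 of 10 members against 5.31% of all genes.

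Against the 3 Sham mice, which these comparisons share, Pi16 rose by a log2 fold change of 1.58 ± 0.27 in AB_LLVNS20min_2w (edgeR adjusted p = 0.0158) and of 1.59 ± 0.27 in AB_LLVNS20min_4w (edgeR adjusted p = 0.00829), the 1 member called in each, against 0.231% and 0.405% of all genes. In AB_LLVNS20min_1w it had 0.88 ± 0.26 (edgeR adjusted p = 0.465) and in AB_LLVNS10min_1w 0.28 (95% interval -0.27 to 0.82). edgeR called 0 members in these 2 groups (0.174% and 0.132% of all genes), with 3 and 1 at an unadjusted p under 0.05 (4.07% and 5% of all genes), and DESeq2 called 0 (0.554% and 0.521% of all genes). Fibroblast marker sums had their highest group mean in AB_LLVNS20min_4w, 860 CPM (684 to 1056). Means were 658 CPM (470 to 766) in AB_LLVNS20min_2w and 584 CPM (472 to 734) in Sham. The part of fibroblast content in the values of Pi16 was not tested.

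After Pi16, Timp1 (2.82 ± 0.91, edgeR adjusted p = 0.351) and Thbs4 (1.87 ± 0.81, edgeR adjusted p = 0.632) had the smallest p in AB_LLVNS20min_2w. In AB_LLVNS20min_4w these were Thbs4 (2.61 ± 0.83, edgeR adjusted p = 0.124) and Timp1 (2.53 ± 0.91, edgeR adjusted p = 0.138). Groups did not overlap for Pi16, Thbs4 and Postn in AB_LLVNS20min_2w, 3 of 10 against 4.68% of all genes in the higher direction. In AB_LLVNS20min_1w they did not for Pi16, Spp1 and Postn (higher, 3.83% of all genes) and for Ccn1 and Thbs1 (lower, 3.99%). In that group Spp1 had 2.34 ± 0.70 (edgeR adjusted p = 0.465) and Ccn1 -0.83 ± 0.36 (edgeR adjusted p = 1.00). In AB_LLVNS10min_1w, Sparc (-0.74 ± 0.28, edgeR adjusted p = 0.779), Ccn1 (-0.72 ± 0.36, edgeR adjusted p = 1.00) and Tnc (-1.28 ± 0.84, edgeR adjusted p = 1.00) led, all with every mouse below Sham, where 5.21% of all genes did so. The fibroblast marker sum given above was also lowest in that group, and its part was not tested. Higher values without overlap were found for 5 of 10 members in AB_LLVNS20min_4w, Pi16, Thbs4, Timp1, Postn and Spp1, but 23.4% of all genes were higher without overlap there. The call of Pi16 was lost without Sham replicate 1 or 2 in both groups, without AB_LLVNS20min_2w replicate 2 (edgeR adjusted p from 0.0691 to 0.155 over these 3 libraries) and without AB_LLVNS20min_4w replicate 1 (0.0524 to 0.0798 over its 3). DESeq2 called 1 and 3 members in these groups, against 1.15% and 5.47% of all genes. Without the libraries of positive length slope edgeR called 3 and 4, against 18.9% and 32.2% of all genes.

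Session length and start were compared directly. AB_LLVNS20min_1w against AB_LLVNS10min_1w, with the same start, gave 0 called members by edgeR (0.0992% of all genes), 3 at an unadjusted p under 0.05 (4.54% of all genes) and 0 by DESeq2 (0.463% of all genes). Spp1 had a log2 fold change of 2.66 ± 0.72 (edgeR adjusted p = 0.329), Pi16 of 0.60 ± 0.26 (0.978) and Sparc of 0.59 ± 0.28 (1.00), each higher with 20 min. For these 3 and Timp1 the groups did not overlap, 4 of 10 members against 4.5% of all genes in the higher direction. Ccn1 had -0.10 (95% interval -0.85 to 0.64), which became 0.07 without AB_LLVNS10min_1w replicate 2 and 0.15 without the libraries of positive length slope. The F test over the 3 start weeks of the 20 min sessions called 0 members (0% of all genes), with Timp1 (edgeR adjusted p = 0.517), Pi16 (0.517) and Tnc (0.517) first, 2 members at an unadjusted p under 0.05 (9.25% of all genes), and 0 by DESeq2 (0.289% of all genes). Start week and duration of treatment are tied in this design and cannot be told apart.

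**Figure D3:**
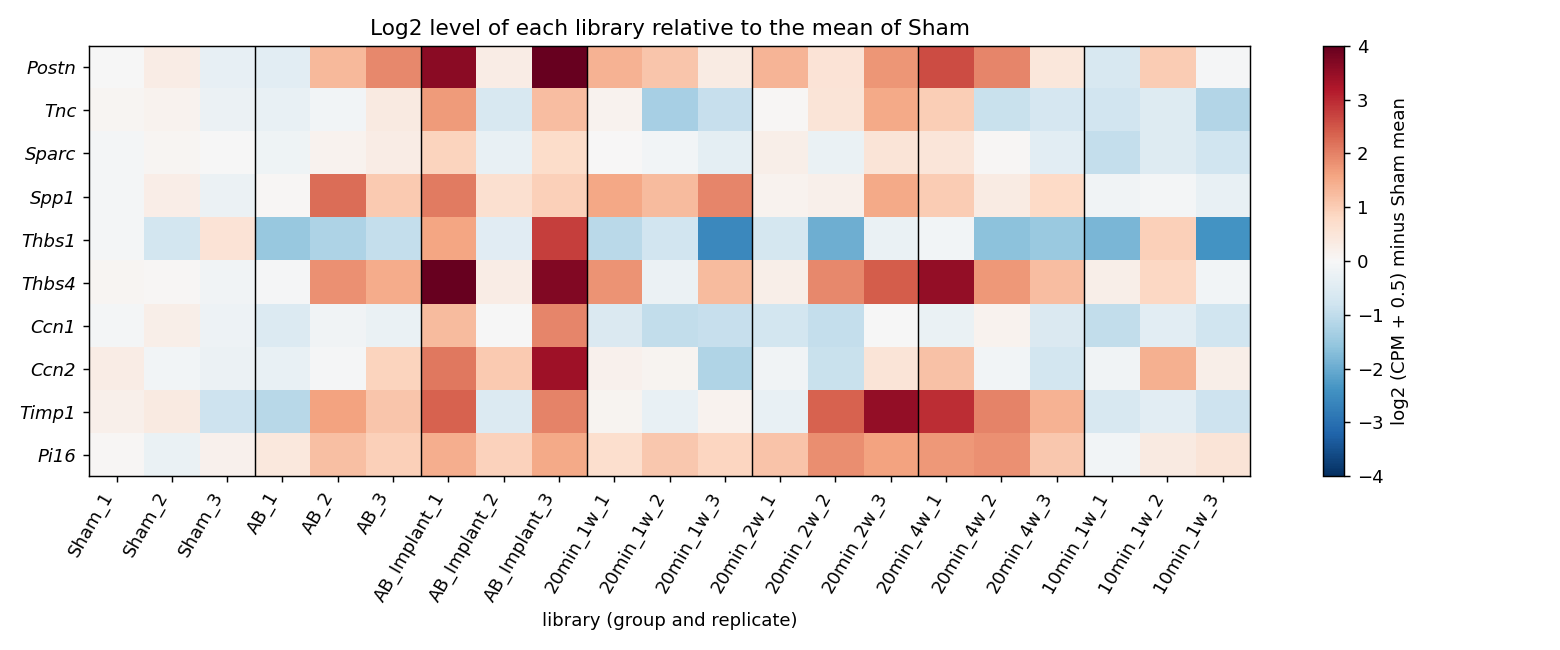
Each library's level of each gene as log2 (CPM + 0.5) relative to the mean of Sham, red above and blue below, with lines between groups of 3 mice; 20min and 10min label the stimulated groups. Replicates 1 and 3 of AB_Implant are red for nearly every gene and replicate 2 is pale, while Pi16 is red in most banded mice.

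Spread within groups differed from group to group. In AB_Implant the median coefficient of variation over the 10 members was 74.7%, against 20.0% over all genes tested, and in AB_LLVNS20min_4w it was 60.7% against 18.5%. It was 53.6% against 36.3% in AB_LLVNS20min_2w and 40.9% against 27.0% in AB. In Sham it was 19.9% for both, in AB_LLVNS20min_1w 32.3% against 32.6%, and in AB_LLVNS10min_1w 28.6% against 29.1%. Relative to the Sham mean, 9 members in AB_Implant replicate 1 and 8 in replicate 3 lay above a log2 value of 1, against 1 in replicate 2. AB_LLVNS20min_2w replicate 3 and AB_LLVNS20min_4w replicate 1 each had 6 such members and were the highest of their groups for 9 and 8 members. In the AB_LLVNS10min_1w group, replicate 2 was highest for 9 members, and no member of replicates 1 and 3 exceeded that value.

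The members varied together from mouse to mouse. After the group means of log2 CPM were subtracted, all 45 pairs had a positive Pearson correlation over the 21 libraries, with a median of 0.633 and a range from 0.19 for Spp1 with Ccn2 to 0.93 for Postn with Sparc. Without subtraction all 45 were positive too, with a median of 0.613. These are descriptions over libraries that differ in depth, mitochondrial share and length slope, and all genes of a library share these. The length slope itself had correlations between -0.48 (Timp1) and 0.50 (Thbs1) with the members.

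**Figure D4:**
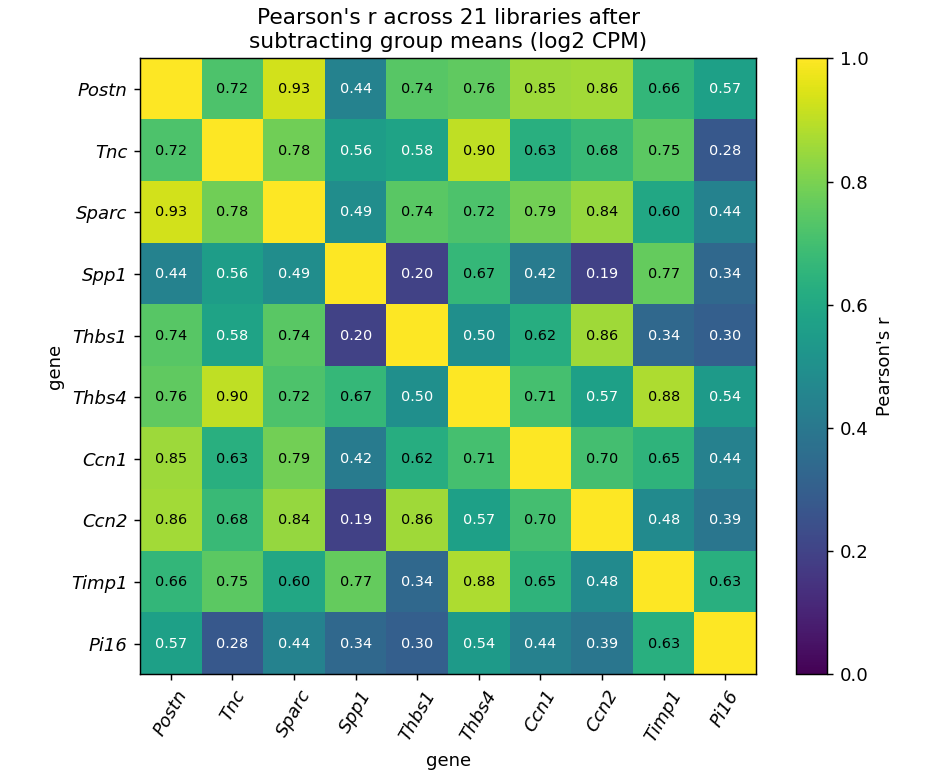
Pearson correlation between each pair of the 10 genes across 21 libraries after subtracting group means of log2 CPM (color scale from 0 to 1, value in each cell). All 45 values are positive, and Postn with Sparc (0.93) and Tnc with Thbs4 (0.90) are the highest.

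The genes most like each member were named by the same measure among the other 12099 tested genes. For Postn they were Xirp2, an actin-binding protein of cardiomyocytes (r = 0.96), and Bgn, the proteoglycan biglycan (0.94). For Tnc they were Thbs4 (0.90) and the collagen chain Col1a2 (0.87), and for Sparc they were Postn (0.93) and the basement membrane collagen Col4a1 (0.92). Thbs4 was closest to Uck2, a pyrimidine kinase (0.95), and Col1a2 (0.93), and Thbs1 to Synpo2l, an actin-binding protein of striated muscle (0.93), and Gpm6b (0.90). Ccn1 was closest to Bgn (0.87) and Postn (0.85), and Ccn2 to Hbegf, a growth factor that binds heparin (0.94), and Rcan1, a target and inhibitor of calcineurin signaling (0.94). Timp1 was closest to Loxl1, an enzyme that crosslinks elastin (0.92), and Plscr1 (0.92), Pi16 to Dnajc1 (0.82) and Ccn5 (0.76), and Spp1 to Vkorc1l1 (0.84) and Ccdc189 (0.82).

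Other genes of the same pathways were read from 12 lists of 122 genes, of which 110 were tested. edgeR called 0 of the 110 in each of the 19 comparisons. At an unadjusted p under 0.05 there were 2 to 37 of them, where the share of all genes ran from 3.97% to 26.6%. The most were in the F test over all 7 groups, 37 against 10.6% of all genes, where DESeq2 called 20 against 4.47%. In AB_Implant against Sham, edgeR had 30 at an unadjusted p under 0.05, against 9.64% of all genes, and DESeq2 called 10, against 1.95%.

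No activated fibroblast gene passed the edgeR test. DESeq2 called Bgn, Cilp and Meox1 in AB_Implant against Sham, where it called 1.95% of all genes. In AB_LLVNS10min_1w against AB_Implant it called Bgn, Cilp, Col1a1, Col3a1, Col5a1 and Meox1, against 0.752% of all genes. It called no gene of this list in the 20 min groups against AB_Implant. Of 19 tested, 17 had positive fold changes in AB_Implant against Sham (median 0.83, all genes -0.01), with Cilp, a matrix protein of scarred heart (3.39 ± 0.84, edgeR adjusted p = 0.0991), and Bgn (1.45 ± 0.38, edgeR adjusted p = 0.116) first. In AB_LLVNS10min_1w against AB_Implant 18 of 19 were negative (median -1.46), led by Meox1, a transcription factor of activated fibroblasts (-2.46 ± 0.53, edgeR adjusted p = 0.0938), and the collagen Col1a1 (-2.03 ± 0.47, edgeR adjusted p = 0.127). In AB_LLVNS20min_1w against AB_Implant 17 were negative (median -0.95). In AB_LLVNS20min_2w against AB_Implant 17 were negative (median -0.84), and in AB_LLVNS20min_4w 13 were (median -0.43). For stimulated against unstimulated banded mice all 19 were negative (median -0.53). These comparisons share the AB_Implant mice. Against AB, 6 of 19 were positive in AB_LLVNS20min_1w (median -0.07), 11 in AB_LLVNS20min_2w (0.02), 15 in AB_LLVNS20min_4w (0.29) and 4 in AB_LLVNS10min_1w (-0.82). The 16 genes of resting and adventitial fibroblasts had medians of 0.24 in AB_Implant against Sham and -0.07 in AB_LLVNS20min_1w against AB_Implant. In AB_LLVNS10min_1w against AB_Implant 14 of the 16 were negative (median -0.42).

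In the TGF-beta axis, 15 of 17 tested genes were positive in AB_Implant against AB (median 0.71, all genes 0.01). Ltbp2, a binding protein of the matrix, had a log2 fold change of 2.36 ± 0.78 (edgeR adjusted p = 0.385) there. Against AB_Implant, 14, 15 and 16 of 17 were negative in AB_LLVNS20min_2w, AB_LLVNS20min_4w and AB_LLVNS10min_1w (medians -0.41, -1.13 and -0.38). In AB_LLVNS20min_1w against AB_Implant, 13 of 17 were negative (median -0.33). Among 14 tested receptors, Itga5, an integrin subunit that binds fibronectin, had the smallest p in that comparison, at -1.12 ± 0.25 (edgeR adjusted p = 0.0583). The 10 genes of the YAP and TEAD list had medians of 0.10 in AB_Implant against AB and -0.03 in AB_LLVNS20min_1w against AB_Implant, next to all-gene medians of 0.01 and 0.05. In AB_LLVNS20min_2w, AB_LLVNS20min_4w and AB_LLVNS10min_1w against AB_Implant they were 0.03, -0.63 and 0.21 (all genes 0.05, -0.02 and 0.04). In AB_LLVNS20min_4w 7 of the 10 were negative, and Yap1 had -1.70 ± 0.54 (edgeR adjusted p = 0.142). DESeq2 called Yap1 there, against 3.81% of all genes. The 7 genes of the SRF and MRTF list had medians of 0.07 in AB_Implant against AB and 0.27 in AB_LLVNS20min_1w against AB_Implant. In the latter comparison 5 of the 7 were positive, but Srf itself had -0.87 ± 0.23 (edgeR adjusted p = 0.120). DESeq2 called Srf in AB_LLVNS20min_1w against AB_Implant and against AB, where it called 1.57% and 0.711% of all genes. Medians against AB_Implant were 0.06, -0.30 and -0.29 in AB_LLVNS20min_2w, AB_LLVNS20min_4w and AB_LLVNS10min_1w. Of the families of the members, the other TIMPs were led by Timp2 (0.74 ± 0.20 in AB_Implant against Sham, edgeR adjusted p = 0.131) and the other thrombospondins by Thbs2 (-1.13 ± 0.43, edgeR adjusted p = 0.344) and Comp (2.49 ± 1.01, edgeR adjusted p = 0.404). Ccn5, of the CCN family, had 1.20 ± 0.52 (edgeR adjusted p = 0.446), Fstl1, of the SPARC family, 1.24 ± 0.80 (0.728), and Adamts8, a metalloproteinase, 2.08 ± 0.57 (0.137), all in the same comparison.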

How the data were processed

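Polyadenylated RNA was sequenced as paired reads, per the labels' protocols, and the submitters' processing notes name FastQC 0.11.9, cutadapt 1.11, HISAT2 2.1.0, featureCounts 1.6.0, edgeR 3.32.1, R 4.0.3 and build GRCm38. The authors deposited 1 table of counts per gene whose name speaks of normalized values. Its values were read as raw counts: 100% were whole, totals differed, and the unevenness of neighboring count frequencies was 0.471 to 1.53 as deposited but at least 7.37 in copies scaled and rounded. Whether strand was used is not given in the sources used here.

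Genes with at least 1 CPM in at least 3 of 21 libraries were tested with edgeR 4.0.16 in R 4.3.3 (TMM factors, quasi-likelihood test, 7 groups in 1 model, no covariates, adjusted p under 0.05). This method gives every edgeR adjusted p above. It was checked on simulated counts in which all genes and groups shared the same spread. That check does not cover the unequal spread of the members between groups. Groups not overlapping means that all 3 mice of 1 group exceed all 3 of the other. Alternatives were DESeq2 1.42.0, its size factors, other filters (none, or a mean of at least 5 CPM), scaling without mitochondrial genes, the groups of a comparison alone, the length slope as covariate, a replicate block and leaving out each replicate. Correlations used a pseudocount of 0.5 CPM. Positions and exonic lengths came from GENCODE M21 on GRCm38, which gave symbols for 22118 genes, and promoter windows from RefSeq on GRCm38.p6.

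All 10 members are named, with fold change and SE for called members and the 3 of smallest p per comparison; the few further fold changes were chosen after their values were seen. Members, lists and naming rule were chosen with earlier results of these data known. Where nothing says that mice were housed or processed apart, p-values describe only the spread between these samples. A result of the gene lists is not reported here.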

Additional observations from a re-analysis of the deposited data

How the results depend on the processing

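No log2 fold change of a called member, or of the 3 members of smallest p in a comparison, reversed under any alternative run. Of the other fold changes printed, none of them called, 4 besides that of Spp1 in AB_Implant vs AB reversed. Spp1 in AB_Implant vs AB had -0.00273 with DESeq2, -0.00033 with DESeq2 size factors, -0.026 without the libraries of positive slope and -0.73 to 0.95 on leaving out 1 replicate. Timp1 in AB_LLVNS20min_4w vs AB_Implant had -0.41 with the length slope as covariate and -0.00335 to 1.08 on leaving out 1 replicate, and in AB_LLVNS20min_2w -0.18 to 1.39. Spp1 in AB_LLVNS20min_1w vs AB_Implant had -0.00477 to 1.03, and Ccn1 in AB_LLVNS20min_1w vs AB_LLVNS10min_1w 0.15 without the libraries of positive slope and -0.25 to 0.070 on leaving out 1 replicate. Of the alternatives for single members, 985 kept their direction and side of the threshold, 66 gained it, 45 lost it and 12 reversed. With all libraries, the members called were 1 in AB_Implant vs Sham, 0 in AB_Implant vs AB, 1 in AB_LLVNS20min_1w, 0 in AB_LLVNS20min_2w, 0 in AB_LLVNS20min_4w and 1 in AB_LLVNS10min_1w vs AB_Implant, 1 in AB_LLVNS20min_2w and 1 in AB_LLVNS20min_4w vs Sham, 1 in stimulated vs unstimulated banded mice and 2 over all 7 groups. DESeq2 gave 5, 3, 4, 2, 3, 5, 1, 3, 1 and 8 in this order. The length slope as covariate gave 5, 1, 3, 1, 0, 5, 1, 1, 1 and 6, where 6.06%, 0.405%, 4.06%, 0.793%, 0.364%, 1.47%, 1.5%, 0.479%, 1.07% and 4.1% of all genes were called. No filter on low counts gave 2 in AB_LLVNS20min_1w and 1 in AB_LLVNS20min_2w vs AB_Implant (0.429% and 0.174% of all genes), and DESeq2 size factors gave 1 in the latter (0.24%). A mean of at least 5 CPM, with fewer genes tested, gave 0 in AB_LLVNS10min_1w vs AB_Implant, in AB_LLVNS20min_2w and AB_LLVNS20min_4w vs Sham, in stimulated vs unstimulated and over all 7 groups. The share of all genes called under that filter was not counted, so these counts cannot be set beside it. The groups of a comparison alone gave 0 in AB_LLVNS20min_1w and AB_LLVNS10min_1w vs AB_Implant, AB_LLVNS20min_2w vs Sham and stimulated vs unstimulated (0.132%, 0.0177%, 0.00891% and 0.416% of all genes), 3 in AB_LLVNS20min_4w vs AB_Implant and 4 in AB_LLVNS20min_4w vs Sham, where 36.4% and 35.9% of all genes were called. The cause of these differences was not tested.

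The replicate block gave 0 in AB_Implant vs Sham, AB_LLVNS10min_1w vs AB_Implant and stimulated vs unstimulated (0%, 0.0579% and 0.298% of all genes), and 1 over all 7 groups (0.388%). The numbers did not pair the mice: 18 of 63 same-numbered pairs correlated above 0.1, and 1 of 21 libraries was closest to its own number. No library passed the planned slope limit of 0.3, so leaving out the 3 libraries of positive slope was chosen after seeing the data. It gave 4, 0, 3, 3, 3, 2, 3, 4, 4 and 7 in the order above, where 1.32%, 0.314%, 1.57%, 14.7%, 32.2%, 0.373%, 18.9%, 32.2%, 18% and 20.3% of all genes were called. Leaving out 1 replicate at a time gave 0 to 5 in AB_Implant vs Sham, 0 to 1 in AB_Implant vs AB, 0 to 3, 0 to 1, 0 to 1 and 0 to 4 in the stimulated groups vs AB_Implant, 0 to 1 in both groups vs Sham, 0 to 1 in stimulated vs unstimulated and 1 to 5 over all 7 groups. Tnc (3 to 86 counts) and Spp1 (5 to 57) are the members that depth limits most.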
